A study of Homo sapiens with 6 samples.

Results

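Nuclear receptor coregulators are proteins that bind steroid receptors and raise or lower the transcription of their target genes. The 9 such genes described here, in bladder cancer cells given a synthetic androgen, are the coactivators NCOA1, NCOA2, NCOA3, NCOA4, NCOA7 and FHL2, the SUMO ligase PIAS1 and the corepressors NCOR1 and NRIP1. Members were taken by gene symbol, as every probe set that the platform annotation maps to one of these genes and to no other. The rule found 22 of the 49193 probe sets on the arrays, for 7 of the 9 genes and among 18129 genes in all. NCOA3 and NCOR1 were not analysed here.

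Total RNA came from UMUC3-c31 cells, a line named after the human bladder carcinoma line UMUC3. The labels do not say how c31 was derived or whether it is a single clone. The treated group received 10 nM R1881, a synthetic androgen that is metabolised slowly, for 24 h (3 arrays), and the other group received ethanol vehicle over the same time (3 arrays). Cells of both groups had first spent 24 h in serum stripped of steroids with charcoal. Each value below is a log2 RMA value from the authors' table, that is, an array intensity after background correction and quantile normalization, and a difference of 1 on this scale is a doubling. The study gives its replicates as biological. Each SE, interval and p-value from limma weighs the spread between these 3 arrays a group together with the spread of all features fitted. In RNA from a whole culture, a change in RNA per cell and a change in the share of cells that make it cannot be told apart.

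As background, the p160-type coactivators NCOA1 (SRC-1), NCOA2 (TIF2) and NCOA3 bind the ligand-activated receptor through short leucine-rich motifs and bring in histone acetyltransferases. NRIP1 (RIP140) uses similar motifs but recruits deacetylases and carboxy-terminal binding proteins, and NCOR1 carries a deacetylase complex to receptors that are unliganded or bound by antagonist. FHL2 is built of LIM zinc-finger domains alone. It acts as a steroid receptor coactivator in prostate cells, and also travels between focal adhesions and the nucleus, where it works with serum response factor (SRF), beta-catenin and other factors.

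FHL2 was the 1 member whose transcript differed between the groups past the threshold, and it was lower with R1881. Sequence before 2 of its transcript starts is shown first, with 1 window of NCOA7, because these hold a motif found in no window of the other 4 members with sequence. The RefSeq table (build GRCh38.p14) gave 17 windows for 6 of the 7 measured genes, each made here of the 250 bases before a transcript start and written 5′ to 3′ on the gene's strand. Capitals mark the CArG box, the site that SRF binds, which reads the same on both strands as a pattern.

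FHL2 inner start, chr2:105399052-105399301, minus strand: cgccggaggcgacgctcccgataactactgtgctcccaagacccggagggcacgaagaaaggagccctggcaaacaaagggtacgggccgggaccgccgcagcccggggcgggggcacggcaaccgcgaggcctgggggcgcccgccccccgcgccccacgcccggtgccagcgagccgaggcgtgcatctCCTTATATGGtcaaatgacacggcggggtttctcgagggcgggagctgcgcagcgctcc
FHL2 outer start, chr2:105438514-105438763, minus strand: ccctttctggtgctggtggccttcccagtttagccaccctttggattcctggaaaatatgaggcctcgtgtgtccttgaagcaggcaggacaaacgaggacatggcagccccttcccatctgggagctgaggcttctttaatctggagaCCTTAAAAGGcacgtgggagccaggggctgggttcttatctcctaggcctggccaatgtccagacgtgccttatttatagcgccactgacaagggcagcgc
NCOA7, chr6:125919005-125919254, plus strand: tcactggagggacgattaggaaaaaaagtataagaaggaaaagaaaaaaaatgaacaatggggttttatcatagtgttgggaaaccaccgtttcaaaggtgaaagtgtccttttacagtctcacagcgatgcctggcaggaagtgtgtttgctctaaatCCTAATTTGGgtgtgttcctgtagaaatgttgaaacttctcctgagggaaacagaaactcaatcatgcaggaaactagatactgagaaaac

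The box begins 59 bases before the inner FHL2 start, 101 bases before the outer one and 91 bases before the NCOA7 start. A further FHL2 window that overlaps the outer one holds the same box, so that 3 of the 4 FHL2 windows match, against 1 of 3 for NCOA7. Over all 35116 windows of this length in the table, 1.16% hold a CArG box. The steroid receptor half-site AGAACA, or TGTTCT on the other strand, was in none of the 17 windows, against 12.4% of all windows. These are matches of letters in short windows. Binding was not measured here, and distal elements lie outside the windows.

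With R1881, FHL2 RNA fell by 19.7%. The R1881 arrays read, on the probe set with the highest signal, 10.67, 10.71 and 10.70, against 11.02, 11.01 and 11 in the vehicle arrays. The groups did not overlap. FHL2 averaged 10.69 ± 0.02 with R1881 and 11.01 ± 0.01 with vehicle (SD, n = 3 each). The log2 difference was -0.32 ± 0.04 (SE), a fold of 0.803 (95% confidence interval 0.752 to 0.857; limma adjusted p = 0.00896 over all genes). This was a modest change among the genes that R1881 lowered: 100 of the 148 called falls were larger.

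**Figure D1:**
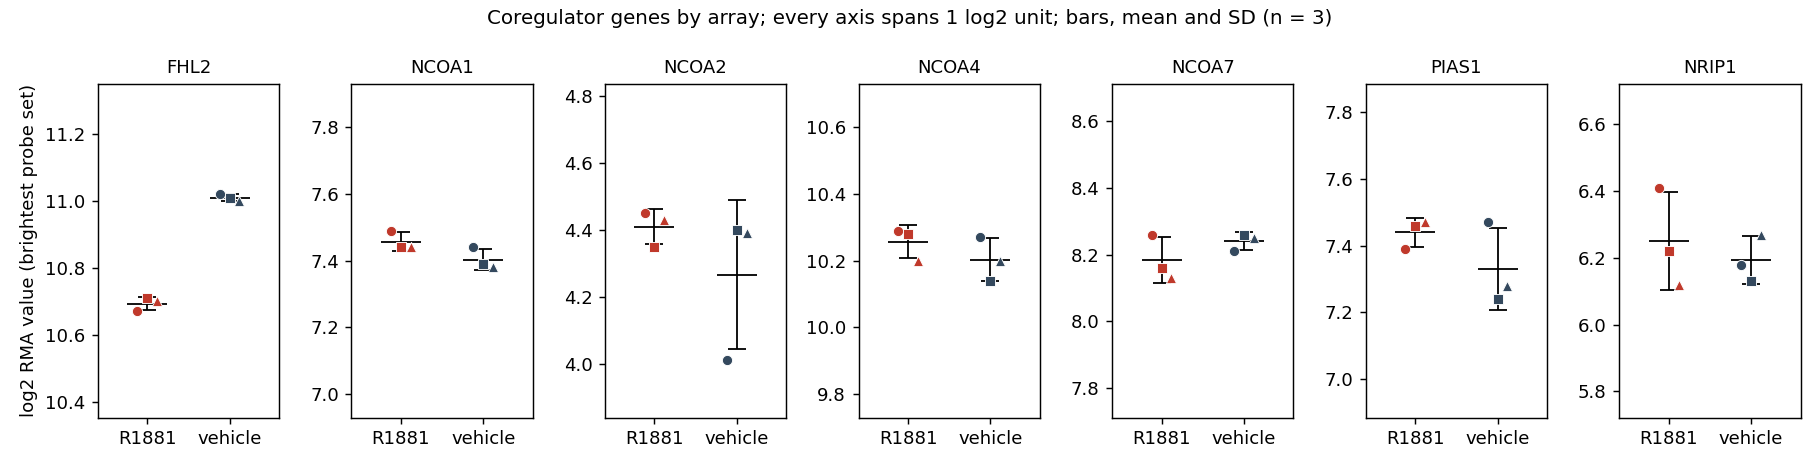
Log2 RMA value of the brightest probe set of each of the 7 measured coregulator genes, with R1881 arrays in red and vehicle arrays in dark blue; circles, squares and triangles are replicates 1, 2 and 3, bars are mean and SD (n = 3), and each axis spans 1 log2 unit. Only in FHL2 do the R1881 arrays (10.67 to 10.71) and the vehicle arrays (11 to 11.02) stay apart.

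The other FHL2 probe sets gave the same size of fall, and the platform annotation ties both to the same sequence record. The second is an x-type set, whose probes can also match sequences of other genes. It read 10.36, 10.43 and 10.42 with R1881, against 10.68, 10.77 and 10.71 with vehicle. The third read 9.69, 9.90 and 9.82 with R1881, against 10.03, 10.17 and 10.15 with vehicle. R1881 replicate 1 was the lowest array on all of them, and the groups did not overlap on any. The log2 differences were -0.32 ± 0.05 (SE) on the second and -0.31 ± 0.07 on the third, with limma adjusted p of 0.0310 and 0.112 over all probe sets, where the brightest set had 0.0182. The mean over the 3 sets differed by -0.32 ± 0.04 on the log2 scale (exact two-sided permutation test p = 0.10, the smallest that 3 arrays against 3 can give). This permutation test also gave p = 0.10 for the mean over the NCOA7 sets, which was below background and differed by only 0.03 ± 0.04. Its groups did not overlap either.

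**Figure D2:**
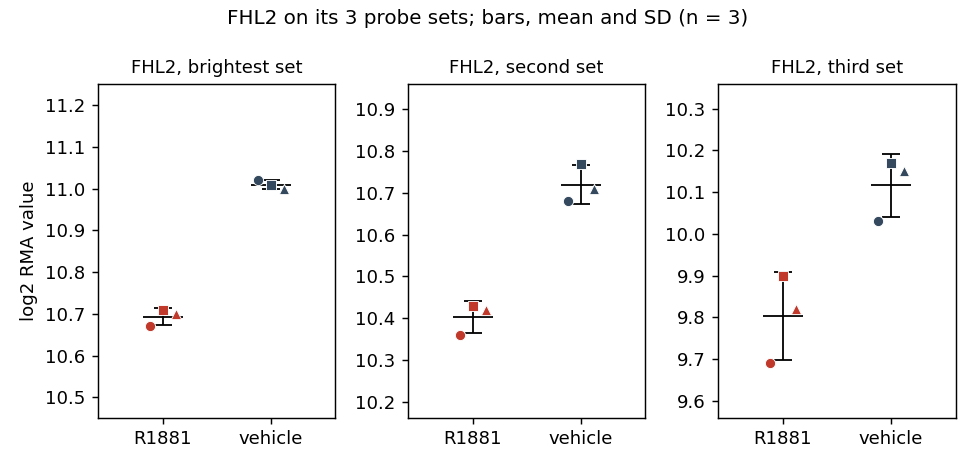
Log2 RMA values of FHL2 on its 3 probe sets, R1881 arrays in red and vehicle arrays in dark blue, with replicates 1, 2 and 3 as circles, squares and triangles and bars for mean and SD (n = 3). The groups are apart on each set, and the third set is the most scattered, with R1881 values of 9.69 to 9.90 and vehicle values of 10.03 to 10.17.

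Across the members, 1 of 7 genes was called, where 2.42% of all genes were called in either direction and 0.816% as lower with R1881. On the brightest sets the groups did not overlap for 1 of the 7, FHL2, against 18.5% of all genes. By probe set, 2 of 22 were called, both of FHL2, against 1.54% of all probe sets. Members were chosen with earlier results of these data known, so the shares beside these counts do not test the set. The gene-level call of FHL2 held when any 1 array was left out, with adjusted p of 0.0334 to 0.0492. Of all 15 alternatives run it was lost in 1, the fit with the replicate number as a block, at -0.32 with an adjusted p of 0.0648. Both probe-set calls were lost without any 1 of the 6 arrays, at 0.0625 to 0.0875 for the brightest set and 0.0721 to 0.126 for the second.

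NCOA1, the founding receptor coactivator of its family, read 7.49, 7.44 and 7.44 with R1881, against 7.44, 7.39 and 7.38 with vehicle. The groups touched at 7.44. The log2 difference was 0.05 ± 0.04 (SE), with a 95% interval of 0.967 to 1.11 times the vehicle level (limma adjusted p = 0.617). Its 5 further probe sets differed by -0.05 to 0.15 on the log2 scale, 3 of them higher and 2 lower with R1881, and none was called. The widest interval among them, on a set that averaged 5.58 with R1881 and 5.62 with vehicle, ran from -0.38 to 0.31.

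NCOA2, its close relative, was below the array background on each of its 3 probe sets. Background was set at 4.99, the 90th percentile of the mean log2 values of 423 olfactory receptor and keratin-associated protein genes, which a bladder line is not thought to express. The set with the highest signal read 4.45, 4.35 and 4.43 with R1881, against 4.01, 4.40 and 4.39 with vehicle. Vehicle replicate 1 alone was low, and without it the log2 difference was 0.015 in place of 0.14. No fold is given, since both groups lay under the background level.

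NCOA4 (ARA70) was first described as a steroid receptor coactivator, and it is also the receptor that delivers ferritin to lysosomes. It read 10.29, 10.28 and 10.20 with R1881, against 10.27, 10.14 and 10.20 with vehicle. The ranges overlapped in part, with R1881 replicates 1 and 2 just above the highest vehicle array. The difference was 0.05 ± 0.05 (SE) on the log2 scale, or 0.952 to 1.13 times the vehicle level as a 95% interval (limma adjusted p = 0.681). Its second set stood at -0.05 ± 0.05, and both sets are of the s type, whose probes can match related transcripts.

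NCOA7 (ERAP140), a receptor-binding protein of the TLDc family, read 8.26, 8.16 and 8.13 with R1881, against 8.21, 8.26 and 8.25 with vehicle. The log2 difference was -0.06 ± 0.05 (SE), a 95% interval of 0.886 to 1.04 times the vehicle level (limma adjusted p = 0.645). A second set above background stood at -0.07 ± 0.09. The remaining 3 sets lay below background in both groups. One of these read 4.38, 4.39 and 4.35 with R1881, against 3.87, 4.27 and 4.16 with vehicle, and its groups did not overlap. It did not pass the threshold (limma unadjusted p = 0.0282, adjusted p = 0.326), and no fold is given.

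**Figure D3:**
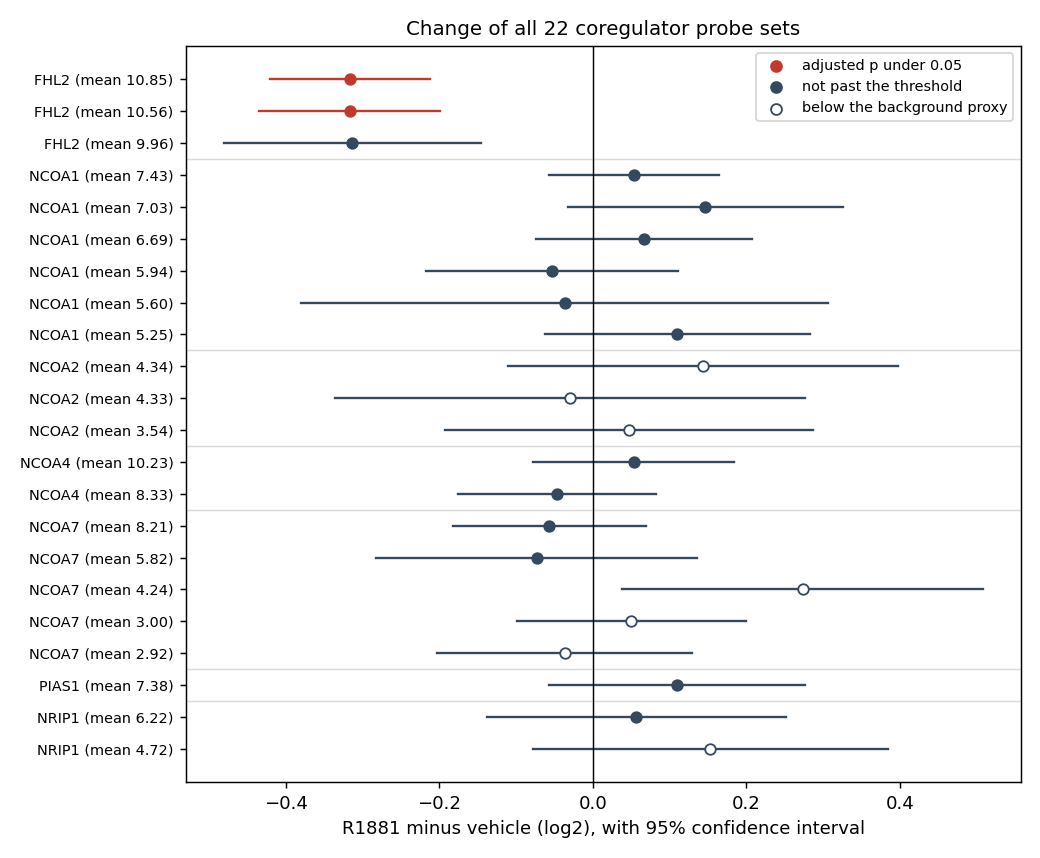
Log2 difference, R1881 minus vehicle, of each of the 22 coregulator probe sets with its 95% confidence interval from limma; the label gives the gene and the mean log2 value over the 6 arrays, red marks an adjusted p under 0.05, and open points lie below the background level in both groups. The 3 FHL2 sets lie together at -0.31 to -0.32, while 18 of the other 19 intervals include 0.

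PIAS1, a SUMO ligase that binds steroid receptors, had 1 probe set. It read 7.39, 7.46 and 7.47 with R1881, against 7.47, 7.24 and 7.28 with vehicle. Vehicle replicate 1 equalled the highest R1881 array, and the other vehicle arrays lay below all of them. The log2 difference was 0.11 ± 0.07 (SE), a 95% interval of 0.964 to 1.21 times the vehicle level (limma adjusted p = 0.516). Without vehicle replicate 1 it was 0.18, and without vehicle replicate 2 it was 0.065. NRIP1, a corepressor that estrogen induces in breast cancer cells, read 6.41, 6.22 and 6.12 with R1881, against 6.18, 6.13 and 6.27 with vehicle. This NRIP1 set is of the s type, whose probes can match related transcripts. R1881 replicate 1 was high and the other R1881 arrays lay within or just below the vehicle range. The log2 difference was 0.06 ± 0.08 (SE), a 95% interval of 0.911 to 1.19 times the vehicle level (limma adjusted p = 0.789). Without R1881 replicate 1 it was -0.02. The second NRIP1 set, below background in both group means, read 5.03, 4.69 and 4.68 with R1881, against 4.65, 4.60 and 4.69 with vehicle, so that R1881 replicate 1 stood out there too.

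For these 6 genes the data bound a change more than they measure one. Among the 5 with signal above background, the 95% intervals of the brightest sets reached from 0.886 (NCOA7) to 1.21 (PIAS1) times the vehicle level. The smallest change called for any gene in the comparison was 0.22 on the log2 scale, a size that lies inside the brightest-set intervals of PIAS1 and NRIP1 and outside those of NCOA1, NCOA4 and NCOA7. Dimmer sets above background bound less: the widest NCOA1 interval ran from 0.768 to 1.24 times the vehicle level and that of the second NCOA7 set from 0.822 to 1.10, so that a change of called size lies inside both. The median log2 difference over the 7 members was 0.05, against 0 over all genes tested.

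**Figure D4:**
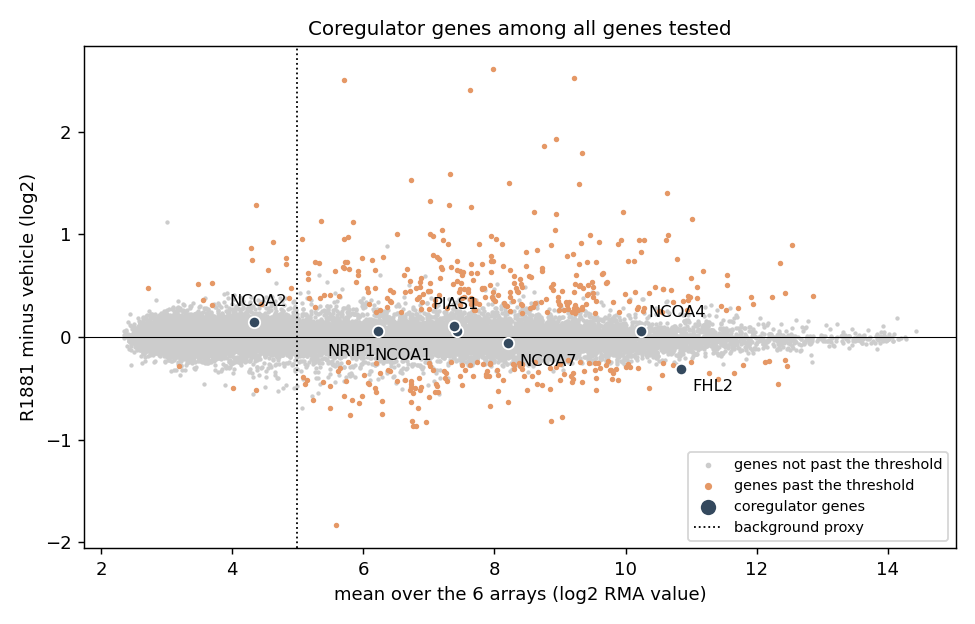
Log2 difference, R1881 minus vehicle, against the mean log2 value over the 6 arrays, for 18129 genes (1 probe set each); grey genes did not pass an adjusted p of 0.05, orange genes did, dark blue points are the 7 coregulator genes and the dotted line is the background level of 4.99. FHL2 lies at the lower edge of the grey band, at -0.32, the other members lie inside it, and NCOA2 stands left of the background line.

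Probe sets of 1 gene can behave differently when they sit on different transcripts, so each set was also compared with the mean of its gene on the same array. None of 21 coregulator sets departed from its gene, where 0.0494% of 38483 sets did in the whole table. At an unadjusted limma p under 0.05 there was 1 of the 21, against 2378 of the 38483. No coregulator set was called under any alternative in which departures were fitted. The filter on dim sets left fewer of them to test. The FHL2 sets departed by 0.00 on the log2 scale, each with a 95% interval within 0.11 of 0. The set with the unadjusted p was the dim NCOA7 set described above, at 0.24 ± 0.09 (SE, limma adjusted p = 0.767). Replicate scatter of the members was like that of the array: the within-group SD had a median of 0.09 over the 22 sets and 0.09 over all probe sets, with a range of 0.02 to 0.23 among the members.

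Other coregulators were counted from lists drawn up from general knowledge of the pathway, with earlier results of these data known. The counts describe these lists and do not test them. To set beside each list, 2.42% of all genes were called, and 2585 of all 18129 had an unadjusted limma p under 0.05. Of 39 further coactivators and chromatin partners, 2 rose, 1 fell and 36 did not pass, with a median log2 difference of 0.02. Of the 39, 7 had an unadjusted limma p under 0.05. TGFB1I1 (Hic-5, ARA55), a LIM-domain steroid receptor coactivator like FHL2, rose: it read 9.66, 9.69 and 9.73 with R1881, against 9.19, 9.41 and 9.32 with vehicle, a log2 difference of 0.39 ± 0.06 (SE, limma adjusted p = 0.0285). The groups did not overlap. The acetyltransferase gene KAT2B (PCAF) rose by 0.31 ± 0.05 (adjusted p = 0.0345). TRIM24, a coregulator with a chromatin-reading bromodomain, fell by 0.32 ± 0.05 (adjusted p = 0.0298) on an x-type set. On the brightest set that is not of the s or x type it stood at -0.21 with an adjusted p of 0.141.

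Of 26 measured corepressor genes 1 rose and 25 did not pass, with a median of -0.01. Of the 26, 4 had an unadjusted limma p under 0.05. The risen gene was SAP30, a subunit of the SIN3 deacetylase complex. It read 10.30, 10.35 and 10.37 with R1881, against 10.01, 10.04 and 10.10 with vehicle. Its log2 difference was 0.29 ± 0.05 (SE, limma adjusted p = 0.0246). Of 22 measured nuclear receptor genes 1 rose and 21 did not pass, with a median of 0.02. Of the 22, 3 had an unadjusted limma p under 0.05. The gene that rose was NR3C1, for the glucocorticoid receptor, at 0.25 ± 0.05 (SE, limma adjusted p = 0.0462). These single calls were not stable to the loss of an array. With each of the 6 arrays left out in turn, KAT2B (adjusted p of 0.0611 to 0.144), SAP30 (0.0637 to 0.112) and NR3C1 (0.111 to 0.148) never passed. TGFB1I1 passed only when vehicle replicate 2 was the array left out (0.0402, otherwise up to 0.126). TRIM24 passed only with vehicle replicate 3 left out (0.0374, otherwise up to 0.128). NR3C1, read on an s-type set, also lost it when arrays were re-centred on their medians (0.0530). Of all 15 alternatives NR3C1 passed in 7, with limma adjusted p of 0.00310 to 0.148 over the 15.

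**Figure D5:**
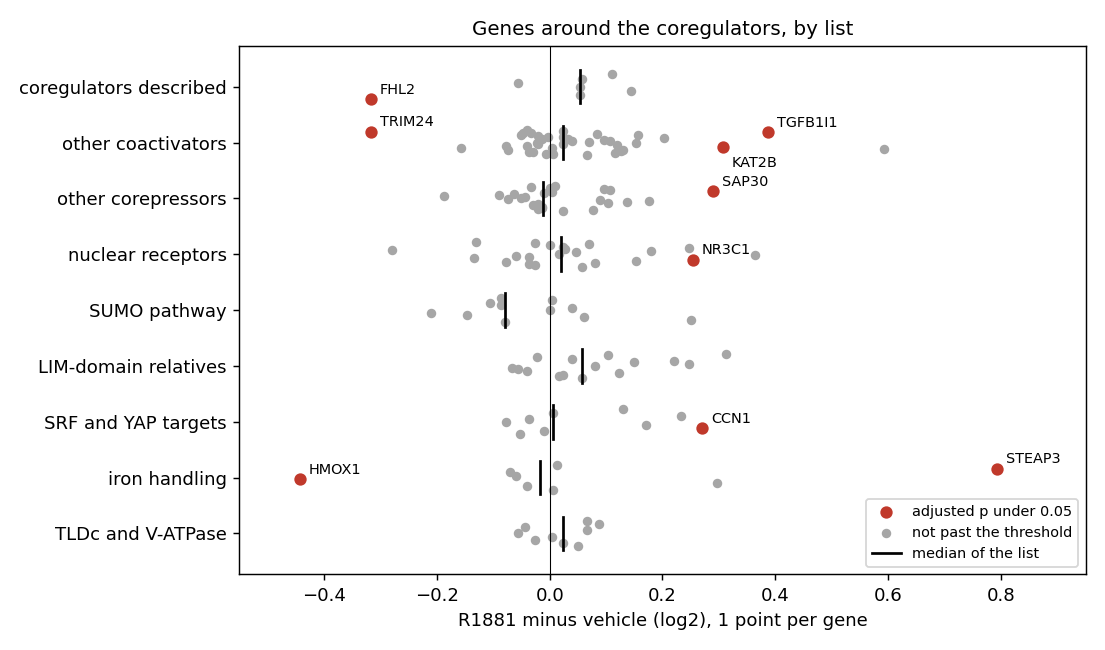
Log2 difference, R1881 minus vehicle, of each measured gene in the coregulator set and 8 lists around it, 1 point per gene; red points passed an adjusted p of 0.05, grey points did not, and black bars are list medians. The medians lie between -0.08 (SUMO pathway) and 0.06 (LIM-domain relatives), and the called genes include FHL2 at -0.32 and TGFB1I1 at 0.39.

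Genes linked to single members were counted in the same way. None of 11 SUMO pathway genes around PIAS1 passed (3 at an unadjusted limma p under 0.05, as were 2585 of all 18129 genes), and SENP1, a SUMO protease, had the smallest p, at -0.21 ± 0.05 (adjusted p = 0.0908). None of 15 LIM-domain relatives of FHL2 passed (4 at an unadjusted limma p under 0.05). TGFB1I1, the LIM-domain coactivator that rose, was counted with the further coactivators and not in this list. PDLIM5, a PDZ and LIM protein of the cytoskeleton, had the smallest p there, at 0.22 ± 0.04 (adjusted p = 0.0547). PDLIM5 passed under 4 of the 15 alternatives and SENP1 under 2, with adjusted p down to 0.00929 and 0.0273. Of 9 measured SRF and YAP target genes, a class that includes FHL2 in other cells, 1 rose and 8 did not pass, with a median of 0.01. In this list 4 had an unadjusted limma p under 0.05, all of them higher with R1881. Over the 15 alternatives 0 to 3 were called higher and 0 lower. CCN1, a matricellular protein, rose by 0.27 ± 0.04 (adjusted p = 0.0246), but did not pass in any of the 6 leave-outs (0.0715 to 0.0993).

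Of 8 measured iron-handling genes around NCOA4, 1 rose, 1 fell and 6 did not pass, with a median of -0.02. Of the 8, 3 had an unadjusted limma p under 0.05. STEAP3, an endosomal ferrireductase, read 9.57, 9.55 and 9.39 with R1881, against 8.69, 8.79 and 8.65 with vehicle, a log2 difference of 0.79 ± 0.07 (SE, limma adjusted p = 0.00150). HMOX1, the haem-degrading enzyme, fell by 0.44 ± 0.04 (adjusted p = 0.00242). Both kept their calls without any 1 array, at adjusted p of up to 0.0169 and 0.0211. None of 9 TLDc and V-ATPase genes around NCOA7 passed (0 at an unadjusted limma p under 0.05), with MEAK7 nearest at 0.07 ± 0.06 (adjusted p = 0.627).

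PNP, BMAL2 and NTS had the values over the 6 arrays most like those of FHL2. They were picked from 11048 other genes above background in the R1881 mean, the vehicle mean or both. Pearson's r was 0.998 for PNP, a purine salvage enzyme, and 0.997 for both BMAL2, a clock transcription factor, and the neuropeptide gene NTS. PNP read 8.97, 9.01 and 8.97 with R1881, against 9.38, 9.36 and 9.35 with vehicle. NTS averaged 4.66 with R1881, below background, and 6.50 with vehicle. All 6 points share the treatment split and the joint normalization of the arrays.

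As a check of the treatment, FKBP5, a steroid receptor cochaperone and common androgen target, read 10.01 to 10.07 with R1881, against 8.48 to 8.60 with vehicle. The keratin genes KRT18 and KRT8, markers of epithelial cells, lay above background (group means of 10.38 and 7.84 with R1881, 10.75 and 7.91 with vehicle), while CDH1 and EPCAM lay below it. Both KRT18 and KRT8 were read on x-type sets, whose probes can also match sequences of other genes. KRT18 fell by 0.37 ± 0.05 (adjusted p = 0.00830), while KRT7, also above background, rose by 0.40 ± 0.06 (adjusted p = 0.0192). KRT19, below background, stood at 0.23 ± 0.07 with groups that did not overlap (adjusted p = 0.236). Of 9 urothelial markers 3 reached the background level in the R1881 mean, the vehicle mean or both, the highest group mean being 5.08. Of 11 immune, endothelial and fibroblast markers 3 did, none above a group mean of 5.29 and none called (limma, 1 at an unadjusted p under 0.05). The mean log2 value over those 11 ran from 4.02 to 4.09 in R1881 arrays and from 4.02 to 4.08 in vehicle arrays.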

How the data were processed

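The deposited table holds log2 values for 6 Affymetrix arrays, 1 per sample. The submitters' processing notes name RMA as the authors' method, with no version. Values are rounded to 2 decimals, array medians ran from 5.49 to 5.51, and RMA's quantile step would remove a shift shared by all genes. The number of arrays limits the precision.

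Probe sets were named from the platform annotation: 44898 of 49193 had 1 gene symbol. Each gene was represented by its probe set with the highest mean over all arrays. R1881 was compared with vehicle with limma 3.58.1 (lmFit and eBayes, no trend) in R 4.3.3, fitted and adjusted (Benjamini-Hochberg, threshold 0.05) over all 18129 genes, over all 49193 probe sets, and over 38483 departures of a set from its gene's mean. P-values are two-sided. The fits were tested on simulated data.

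All measured members are named. Of each list, up to 4 called genes with the smallest p are named, otherwise the 1 with the smallest p, and for a called member the 3 genes most like it. Members and lists were chosen with earlier results of these data known. One gene of the naming rule is not reported here. Alternatives were re-centring, repeated quantile normalization, a filter on dim sets, a trended robust prior, array weights, a replicate block, other choices among probe sets, and leaving out each array. Promoter windows are RefSeq's.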

Additional observations from a re-analysis of the deposited data

How the results depend on the processing

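FHL2 differed by -0.33 to -0.31 on the log2 scale under the 9 alternatives that kept every array, and by -0.325 to -0.305 with 1 array left out, and its gene-level call held under 14 of 15. The exception was the fit with the replicate number as a block, at -0.32 with a limma adjusted p of 0.0648. The labels do not say that a number marks a shared culture, and deviations of same-numbered arrays correlated by 0.09, 0.06 and 0.03. Every array did correlate best with its own number, a hint from the data and not from the design. Under the block 222 genes, 372 probe sets and 2 departures were called in place of 438, 759 and 19, with 0 coregulator genes, 0 coregulator probe sets and 2 list genes in place of 1, 2 and 8. Without dim features 757 genes and 1383 probe sets were called. The trended, robust prior called 895 genes, 1525 probe sets and 15 list genes, and choosing the set with the largest interquartile range left 5 list genes. The third FHL2 set passed in 2 of these fits, with adjusted p of 0.0468 without dim sets and 0.0205 under the trended prior. Leaving out 1 array gave 209 to 270 genes, 302 to 406 probe sets, 2 to 7 departures, 2 to 3 list genes, 1 coregulator gene and 0 coregulator probe sets. The block and the leave-outs leave fewer residual degrees of freedom, and beyond that the cause was not tested. NCOA1, NCOA2, NCOA4, NCOA7, PIAS1 and NRIP1 were called under no alternative run.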
